A study of Homo sapiens with 8 samples.

Results

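The clustered protocadherins are the genes on human chromosome 5 whose symbols begin with PCDHA, PCDHB or PCDHG. Of the 25411 genes listed for each library, 57 met this rule, of which 15 belonged to the alpha, 19 to the beta and 23 to the gamma cluster. In hg19 they lay side by side at chr5:140165721-140892548, a stretch of 727 kb, all in the alpha, beta and gamma order from left to right. RNA-Seq read counts were examined in BEAS-2B, a bronchial epithelial cell line from a human airway, in 8 libraries that formed 4 groups of 2 biological replicates. Untreated cells (UT) received no nickel. Nickel-exposed cells (Ni-E) were kept in 100 µM NiCl2 for 6 weeks. Washed-out cells (Ni-W) were exposed likewise and then expanded from single cells without nickel for more than 6 months, and the study took 1 such population. The group labelled HCl3 carried the treatment text of Ni-W, while its time without nickel and its relation to Ni-W were not stated.

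Clustered protocadherins are cell-surface proteins related to the cadherins, and each isoform binds the same isoform on a facing cell. They are best known in neurons, where each cell expresses a small set of isoforms that acts as an identity tag and lets the branches of a cell avoid one another. Each alpha and gamma gene has its own promoter and its own large first exon, which carries the outer part of the protein and is spliced to constant exons shared by the whole cluster. The beta genes have their own promoter and a single coding exon with no shared part. The last genes of the alpha and gamma clusters, called C-type (PCDHAC1, PCDHAC2, PCDHGC3, PCDHGC4 and PCDHGC5), are set apart in sequence and in neurons are expressed without the choice that governs the other isoforms. CTCF, a protein that binds DNA and shapes chromatin loops with cohesin, binds most of these promoters, and DNA methylation accompanies the silent ones.

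The layout of the genes bears on what a read count means. All 15 alpha genes were listed with an end at the same base (140391929), and 22 gamma genes, all but the pseudogene PCDHGB8P, ended within 2 bases of position 140892546. In the reference transcripts any alpha genes shared at least 2869 bases at the 3′ end and any gamma genes at least 2177 bases, so reads from these exons belong to no single gene, and how they were divided was not stated. The 19 beta genes had 1 transcript each. The number of bases implied by the deposited RPKM (reads scaled to transcript length and to the size of the library) and the counts was stable for beta genes (3258 to 3316 bases for PCDHB5). It ranged between libraries from 3001 to 5897 bases for PCDHA4, the only alpha gene with RPKM high enough to assess. For PCDHGA1 it ranged from 2755 to 5175 bases, but for PCDHGB5 only from 5108 to 5168 and for PCDHGC3 from 5226 to 5324. The RPKM of alpha genes and of some gamma genes is therefore less certain than that of beta genes, and the tests were made on reads. Reads with several alignments had been removed by the authors, which can lower the counts of beta genes that resemble one another.

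The promoters are shown because each of these genes is switched on from its own promoter. RefSeq promoters (GRCh38.p14, 250 bases before to 50 after the start) were held for 47 of the 57 genes. In each cluster, the run of 8 letters shared by the most promoters was taken, with the alphabetically first kept among ties, and then searched on both strands. ATGTCGCT was present in 9 of 13 alpha promoters (69.2%) and in 0.282% of the promoters of all 27305 genes. GGTGGCGC was present in 13 of 14 beta promoters (92.9%) and in 2.74% of all genes, and GCCGCTGT in 11 of 20 gamma promoters (55%) and in 1.98% of all genes. As each run was chosen for its share in its own cluster, a higher share there than over all genes is partly built in. None of the runs was found in a promoter of another protocadherin cluster, and overlapping matches were counted once per gene. The 4 letters CGCT, which recur within or beside these runs, were in 12 of 13 alpha, 14 of 14 beta and 20 of 20 gamma promoters but also in 71.9% of all genes. Of the named members (defined with the processing below), PCDHAC1 and PCDHGB7 did not hold the exact run of their cluster on the gene's strand. PCDHB8 held the beta run, but its window is not given, and PCDHB5 is given further below. For the other named members that held the run, called or not, the 30 bases around it are given. They read 5′ to 3′ on the plus strand, with the shared run in capitals.
PCDHA4, chr5:140806980-140807009: ggagccacatgATGTCGCTctttaccacaa
PCDHB2, chr5:141094544-141094573: aagagacgcggGGTGGCGCtgcagccttag
PCDHB12, chr5:141208643-141208672: tggagacgcgtGGTGGCGCtgcaggataat
PCDHB14, chr5:141223263-141223292: tggagacacatGGTGGCGCtacaggataag
PCDHB16, chr5:141182310-141182339: tgagaacgcgtGGTGGCGCtgcaggttaag
PCDHGA1, chr5:141330406-141330435: ggactgtgggcGCCGCTGTtcactaatctg
PCDHGA8, chr5:141392571-141392600: ggactgtaagcGCCGCTGTtcacctactgg
PCDHGB4, chr5:141387620-141387649: tgactctgggcGCCGCTGTtggccaaagtg
PCDHGB5, chr5:141397866-141397895: tgactctgggcGCCGCTGTtggccaaagtg
PCDHGC3, chr5:141475883-141475912: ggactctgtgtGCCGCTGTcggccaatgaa
PCDHGC4, chr5:141484955-141484984: tgagcccgggaGCCGCTGTctgccaatcgg
Of the 33 promoters with the run of their cluster on the gene's strand, PCDHGB4 and PCDHGB5 were the only pair with identical windows. The run began between 42 and 85 bases before the start of alpha genes, between 2 and 84 bases before beta genes and between 42 and 97 bases before gamma genes.

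For 4 members with small adjusted P values, chosen after their values were seen, the 250 bases before the start are given, with any of these runs in capitals. PCDHAC2 and PCDHGA11 held no exact match to the 3 runs in this window, PCDHB5 held the beta run and PCDHGB4 the gamma run. PCDHGA11 held gccgctgc, which differs from the gamma run only in its last letter.
PCDHAC2, chr5:140966226-140966475: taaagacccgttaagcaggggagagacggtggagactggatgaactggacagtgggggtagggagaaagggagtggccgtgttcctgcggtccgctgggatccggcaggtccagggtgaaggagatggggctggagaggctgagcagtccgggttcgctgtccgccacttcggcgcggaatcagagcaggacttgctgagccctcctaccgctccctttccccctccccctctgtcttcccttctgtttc
PCDHB5, chr5:141134956-141135205: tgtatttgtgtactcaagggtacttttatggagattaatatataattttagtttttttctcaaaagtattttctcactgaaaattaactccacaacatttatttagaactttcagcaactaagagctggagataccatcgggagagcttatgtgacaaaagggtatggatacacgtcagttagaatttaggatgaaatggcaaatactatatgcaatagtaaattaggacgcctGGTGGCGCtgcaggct
PCDHGB4, chr5:141387448-141387697: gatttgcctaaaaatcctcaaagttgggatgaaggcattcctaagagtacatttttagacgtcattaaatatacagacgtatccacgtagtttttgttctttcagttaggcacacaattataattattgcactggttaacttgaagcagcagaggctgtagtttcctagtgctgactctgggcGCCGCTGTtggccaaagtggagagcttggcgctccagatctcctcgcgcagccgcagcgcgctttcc
PCDHGA11, chr5:141420801-141421050: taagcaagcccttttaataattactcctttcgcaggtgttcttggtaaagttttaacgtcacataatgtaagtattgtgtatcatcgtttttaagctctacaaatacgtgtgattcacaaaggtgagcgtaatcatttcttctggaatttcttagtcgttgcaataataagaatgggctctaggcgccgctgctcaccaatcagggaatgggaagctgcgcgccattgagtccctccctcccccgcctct
The upstream stretch of PCDHAC2 had 62.4% G and C with 13 CG pairs, against 35.2% and 4 for PCDHB5, 46.4% and 11 for PCDHGB4 and 43.6% and 11 for PCDHGA11.

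The libraries held between 26383920 and 45692298 reads, and the biological coefficient of variation within a group was between 0.0452 (HCl3) and 0.101 (UT). A count of 0 allows up to 3 reads, a share of up to 1.14e-05% in the smallest library, and such floors cover counting error only. The epithelial markers KRT8 and KRT18 were high in every library, with summed epithelial markers between 341 and 581 RPKM. The epithelial cadherin CDH1 had between 2 and 18 reads. By the DESeq2 test described below, KRT17 and KRT19 were upregulated over UT in Ni-W and HCl3, KRT17 also in Ni-E and KRT18 also in HCl3. Of 6 airway and alveolar markers none was above 1 RPKM, and SFTPC, a marker of alveolar cells, had 0 reads. NKX2-1, from the same list, had 0 and 0 reads (UT), 4 and 8 (Ni-E), 34 and 16 (Ni-W) and 17 and 16 (HCl3). It was upregulated over UT in Ni-W (adjusted P = 0.000664) and HCl3 (adjusted P = 0.00326) by that test. Of 8 neural markers only TUBB3 was above 1 RPKM, and the neuronal genes ELAVL4 and STMN2 had 0 reads in every library. Of 6 fibroblast markers COL1A1 and PDGFRB were above 1 RPKM in every library, and DCN had 0 reads. Endothelial and blood markers together stayed at or under 0.11 RPKM per list. In bulk RNA, fewer cells that express a gene and less RNA per cell cannot be told apart.

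The clusters differed in how much they were expressed in UT cells. Alpha genes were close to silent, with reads from PCDHA4 alone (10 and 6 reads), and the cluster summed to 0.085 ± 0.0071 RPKM (SD, n = 2). Beta genes summed to 3.61 ± 0.057 RPKM (SD, n = 2), led by PCDHB16 (18% of the cluster), PCDHB5 (17%) and PCDHB2 (13.6%). Gamma genes summed to 18.9 ± 0.27 RPKM (SD, n = 2), of which PCDHGC3, a C-type gene that is widely expressed outside the nervous system, made up 68.3%, followed by PCDHGB4 (10.2%) and PCDHGB5 (8.92%). At least 3 reads in each UT library were found for 30 members, namely 1 alpha, 12 beta and 17 gamma genes. PCDHA9 and PCDHB1 had no reads in any of the 8 libraries, and 34 members had reads in all of them.

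**Figure D1:**
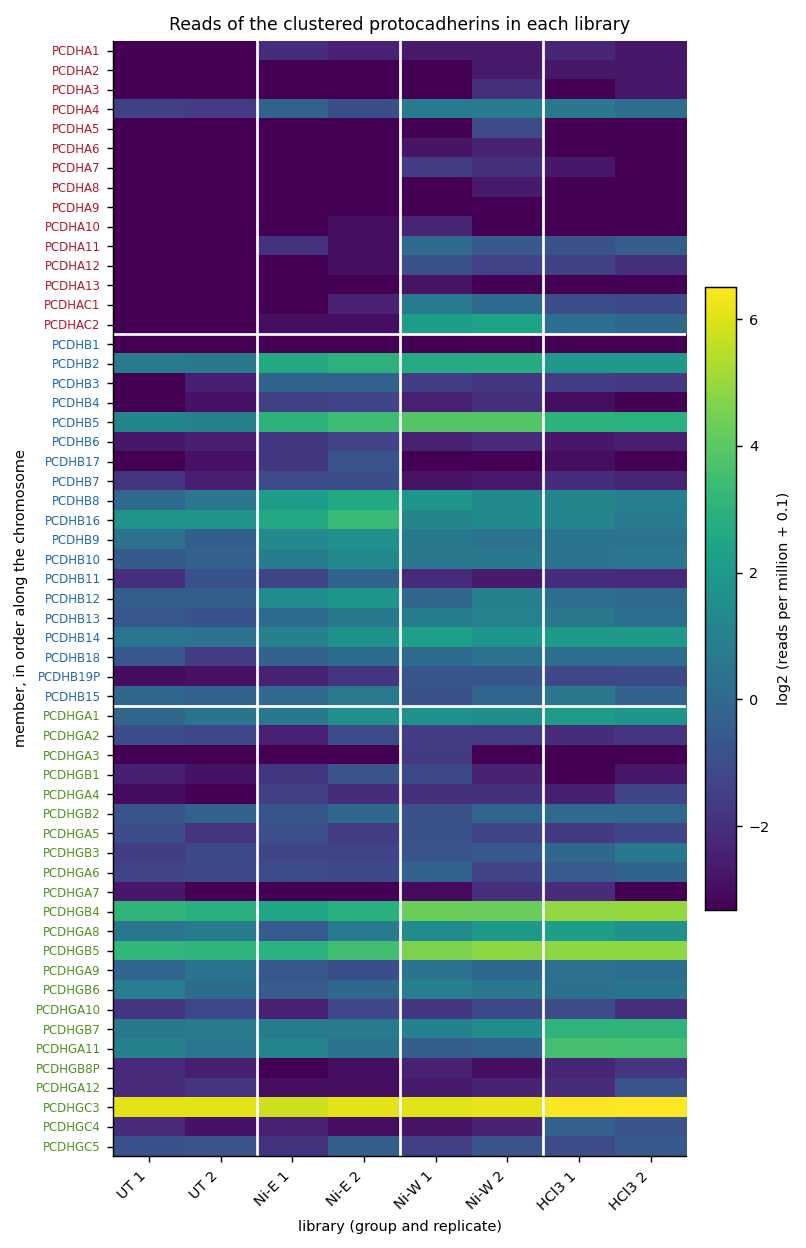
Heat map of the 57 members (rows, in order along the chromosome; alpha names in red, beta in blue, gamma in green) in the 8 libraries (columns), coloured by log2 of CPM (reads scaled to the library total) plus 0.1. PCDHGC3 is the brightest row in every library, the alpha rows are dark in UT (10 and 6 reads for PCDHA4 and 0 for the others), and PCDHGA11 is bright only in the HCl3 columns (444 and 454 reads).

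The summed level of each cluster followed its own course over the groups. The alpha sum was 0.09 and 0.08 RPKM (UT), 0.35 and 0.19 (Ni-E), 1.51 and 1.58 (Ni-W) and 0.63 and 0.52 (HCl3), so every nickel-treated library lay above both UT libraries. The ratio of the Ni-W to the UT alpha sum was 18.2 in RPKM but 38.4 in CPM (reads scaled to the library total only), and that of HCl3 to UT 6.76 and 14.4. The transcript length implied by RPKM and reads of an alpha gene also differed between libraries. The beta sum was 10.6 and 14.6 RPKM (Ni-E), 11.1 and 11.2 (Ni-W) and 7.85 and 7.21 (HCl3), against 3.65 and 3.57 in UT. The gamma sum was 14.7 and 19.3 RPKM in Ni-E, which spanned the UT values of 18.7 and 19.1. It was 24 and 26.5 RPKM in Ni-W and 34.6 and 35.6 in HCl3. Without PCDHGC3, the gamma sum was 5.99 ± 0.25 RPKM (UT), 5.39 ± 1.3 (Ni-E), 12.3 ± 0.59 (Ni-W) and 18.3 ± 0.11 (HCl3) (SD, n = 2 each), so the other gamma genes carried most of the difference. No test was made on these sums, in which shared exons are included. The number of members with at least 3 reads in each library of a group was 38 (Ni-E), 40 (Ni-W) and 40 (HCl3), and for beta genes it was 12 (UT), 18 (Ni-E) and 15 in both washed-out groups.

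**Figure D2:**
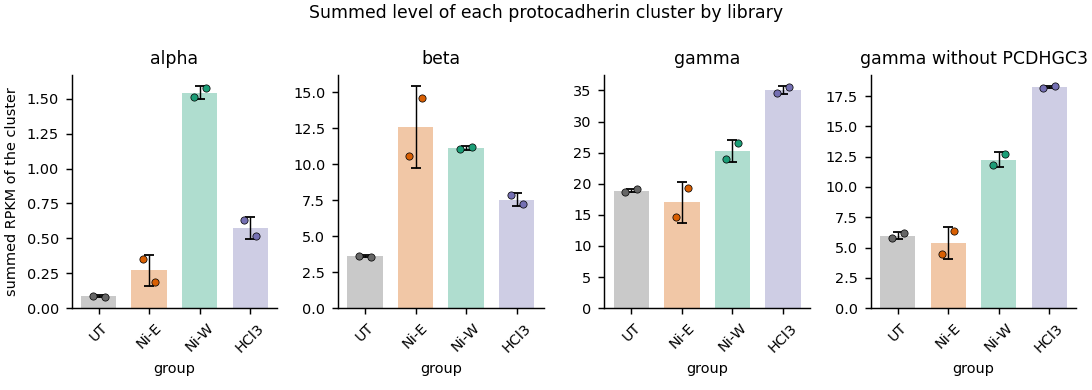
Summed RPKM (vertical axis, from 0) of the alpha, beta and gamma clusters and of the gamma cluster without PCDHGC3 in UT, Ni-E, Ni-W and HCl3; points are libraries, bars are group means and error bars are the SD of 2 libraries. The alpha sum is highest in Ni-W (1.51 and 1.58 RPKM), the beta sum is above UT in all treated libraries, and the gamma sum is highest in HCl3 (34.6 and 35.6 RPKM).

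The first comparison asked which members differed while nickel was present (Ni-E against UT). Upregulated members were all beta genes: 8 of the 19 (PCDHB2, PCDHB3, PCDHB5, PCDHB8, PCDHB9, PCDHB10, PCDHB12 and PCDHB16) were called differentially expressed by DESeq2 (adjusted P under 0.05 and at least 1.5-fold) and none was downregulated. That is 14% of the 57 members and 42.1% of the beta genes, while 5.8% of the 14478 genes tested were called (3.75% upregulated and 2.05% downregulated). Only 35 of the members were tested, so shares of all members are low beside shares of tested genes, here and below. The 17 beta genes tested had a median log2 fold change of 1.57, against 0.00 for all genes tested. No alpha gene (1 tested) and no gamma gene (17 tested) was called by DESeq2, with 0 at an unadjusted P under 0.05 and 0 by edgeR. Depth limits this for the alpha genes, of which 13 had fewer than 3 reads in at least 1 Ni-E library.

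PCDHB5 had 82 and 49 reads (UT) and 282 and 368 (Ni-E). PCDHB2 had 60 and 38 reads (UT) and 216 and 271 (Ni-E). PCDHB8 had 35 and 37 reads (UT) and 154 and 209 (Ni-E). These 3 cell-adhesion genes showed the clearest separation, with Ni-E libraries far above both UT libraries, and log2 fold changes of 2.17 ± 0.29 (SE; adjusted P = 9.04e-12), 2.17 ± 0.32 (1.35e-09) and 2.14 ± 0.37 (9.43e-07), respectively. PCDHB12 rose from 26 and 18 to 91 and 117 reads (log2 fold change 2.09 ± 0.46 SE, adjusted P = 0.000217). PCDHB16, the beta gene with the highest RPKM in UT together with PCDHB5, rose from 124 and 87 to 208 and 329 reads (1.19 ± 0.29 SE, adjusted P = 0.00135). PCDHB14 had 51 and 33 reads (UT) and 63 and 109 (Ni-E) and did not pass the test (0.88 ± 0.45 SE, adjusted P = 0.215). PCDHB3, singled out after its values were seen, went from 0 and 2 reads to 28 and 25, a ratio of 24.7 with a 95% counting interval of 6.5 to 209.

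The Ni-E calls depended on the replicates. There were 4 calls without UT replicate 1, 5 without UT replicate 2, 4 without Ni-E replicate 1 and 3 without Ni-E replicate 2, and PCDHB2, PCDHB5 and PCDHB8 kept theirs in each case. limma on log2(RPKM + 1) called 0 members and 0 genes in all for this comparison. This scale compresses changes of genes at such low RPKM, while the 0 calls over all genes also cover genes at higher RPKM.

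**Figure D3:**
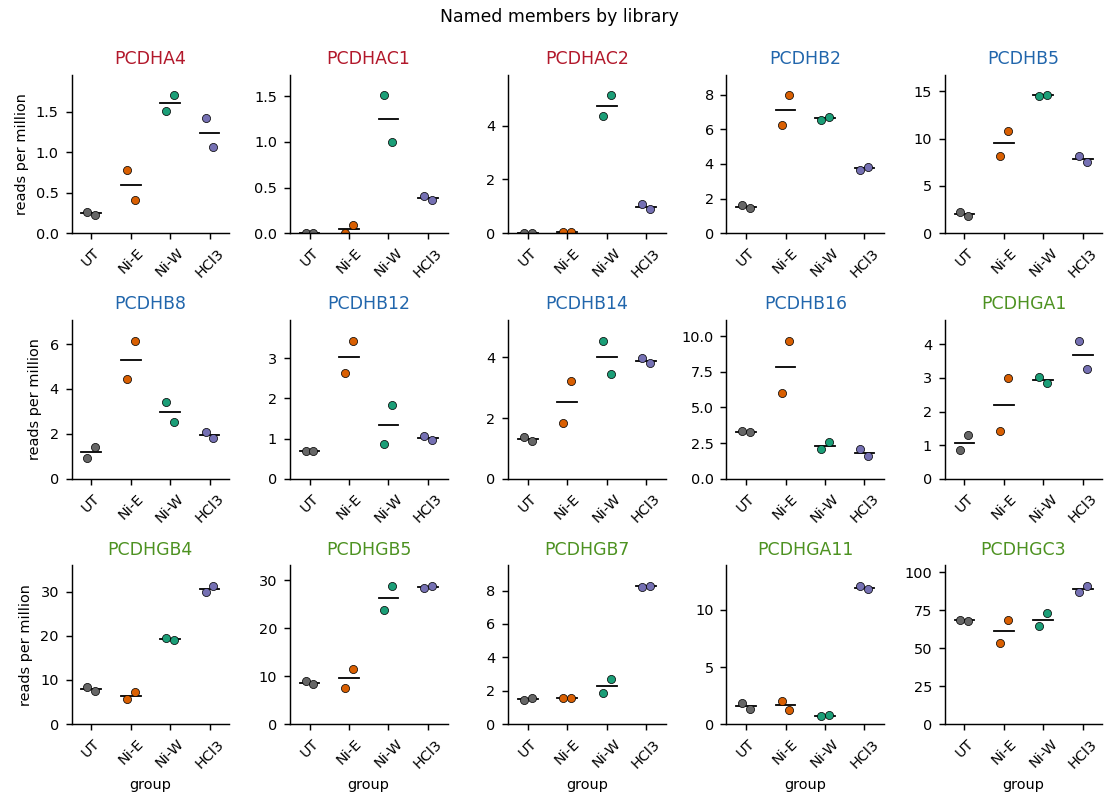
CPM, reads scaled to the library total (vertical axes, from 0, scaled per gene) of 15 members in each library by group; points are libraries and black lines are group means of 2 libraries. PCDHB8, PCDHB12 and PCDHB16 are highest in Ni-E, PCDHAC1, PCDHAC2 and PCDHB5 in Ni-W, and PCDHGB4, PCDHGB7 and PCDHGA11 in HCl3.

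The Ni-W cells were compared with UT cells to find members that differed from untreated cells after the nickel was gone. The Ni-W libraries came from the same washed-out population. In any comparison with Ni-W, the adjusted P values therefore do not cover spread between washed-out populations. Both Ni-E libraries carried the experiment label 2, and the number of populations behind HCl3 was not stated. Whether adjusted P values for Ni-E and HCl3 cover spread between exposures or populations is thus not known. The part of the choice of population in the Ni-W differences, as against that of nickel, was not tested. In Ni-W cells all 3 clusters held upregulated members: 5 alpha, 6 beta and 4 gamma genes were called and none was downregulated. These 15 calls were 26.3% of the members, of which 47 were tested. Over the 15826 genes tested, 15.7% were called (10.9% upregulated and 4.83% downregulated). By cluster the share of members called was 33.3% for alpha, 31.6% for beta and 17.4% for gamma genes, so the gamma share was near that of all genes. Alpha genes other than PCDHA4 had 0 reads in UT, so they could only be called higher here and in HCl3 against UT.

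Both C-type alpha genes were among the calls. PCDHAC2, which in the brain helps serotonergic axons to spread evenly, had 0 and 0 reads (UT), 1 and 1 (Ni-E), 199 and 160 (Ni-W) and 40 and 34 (HCl3). Its level in Ni-W was at least 49-fold higher than in UT, computed against a floor of 3 reads per UT library (adjusted P = 2.42e-09). PCDHAC1 had 0 and 0 reads (UT), 0 and 3 (Ni-E), 69 and 31 (Ni-W) and 15 and 14 (HCl3), at least 12.9-fold above UT in the Ni-W libraries (adjusted P = 1.48e-05). Both genes were thus absent from UT at this depth and present in every washed-out library. PCDHA4, the alpha gene with reads in UT, had 10 and 6 reads there, 27 and 14 (Ni-E), 69 and 53 (Ni-W) and 52 and 41 (HCl3), and rose in Ni-W by 2.65 ± 0.64 on the log2 scale (SE, adjusted P = 0.000275). The remaining alpha calls, singled out after their values were seen, were PCDHA11 (0 and 0 reads in UT, 45 and 18 in Ni-W, at least 8.07-fold) and PCDHA12 (0 and 0 reads, 20 and 9, at least 3.75-fold). PCDHAC2 made up 45.2% of the alpha RPKM in Ni-W, followed by PCDHA4 at 19.8% and PCDHAC1 at 13%. Since shared exons end each alpha transcript, part of the count of 1 alpha gene can stem from another.

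Among beta genes, PCDHB5 was the highest in Ni-W, with 664 and 454 reads, 4.41 and 4.46 RPKM, and 39.8% of the cluster. It was above UT by 2.80 ± 0.24 on the log2 scale (SE, adjusted P = 2.79e-30). PCDHB2 had 299 and 210 reads in Ni-W (2.09 ± 0.30 SE above UT, adjusted P = 1.66e-10). PCDHB8 had 157 and 79 reads (1.34 ± 0.42 SE, adjusted P = 0.00648). PCDHB14, not called in Ni-E, had 208 and 108 reads in Ni-W and was above UT by 1.58 ± 0.36 on the log2 scale (SE, adjusted P = 0.000126). PCDHB13 and the pseudogene PCDHB19P were the other beta genes called.

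In the gamma cluster 4 genes were called, of which PCDHGB5 and PCDHGB4 had the smallest adjusted P values. PCDHGB5 had 335 and 221 reads (UT), 264 and 388 (Ni-E) and 1084 and 895 (Ni-W), a log2 fold change from UT to Ni-W of 1.56 ± 0.18 (SE, adjusted P = 3.55e-17). PCDHGB4 had 318 and 196 reads (UT), 194 and 250 (Ni-E) and 888 and 591 (Ni-W) (1.23 ± 0.18 SE, adjusted P = 1.4e-10). For both genes the Ni-E libraries were within or close to the range of UT and the Ni-W libraries far above it. PCDHGA1 (32 and 34 reads in UT, 138 and 89 in Ni-W; 1.44 ± 0.42 SE, adjusted P = 0.00301) and PCDHGA8 (51 and 45, 117 and 116; 1.00 ± 0.39 SE, adjusted P = 0.036) were also upregulated. PCDHGC3, which dominated the cluster, was not called, with 12.9 and 12.9 RPKM (UT), 10.2 and 13 (Ni-E) and 12.2 and 13.9 (Ni-W).

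Without each library in turn the number of Ni-W calls was 9 without UT replicate 1, 6 without Ni-W replicate 1, 8 without Ni-W replicate 2 and 11 without UT replicate 2. PCDHAC1, PCDHAC2, PCDHB2, PCDHB5, PCDHGB4 and PCDHGB5 kept their calls in each case, while those of PCDHA4, PCDHB8, PCDHB14, PCDHGA1 and PCDHGA8 did not.

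Washed-out and exposed cells were then set against each other (Ni-W against Ni-E). The alpha and most of the beta genes called went in opposite directions. Of the alpha genes called, PCDHA4 had 27 and 14 reads in Ni-E, and the others had at most 6 in a library. These others could hardly be called lower, so their direction was largely fixed beforehand. In Ni-W 10 members were higher and 5 lower, which is 26.3% of the members, of which 48 were tested. Over the 15989 genes tested, 20.5% were called (11.7% higher and 8.81% lower). All 6 alpha calls (PCDHA4, PCDHA7, PCDHA11, PCDHA12, PCDHAC1 and PCDHAC2) and all 3 gamma calls (PCDHGB4, PCDHGA8 and PCDHGB5) were higher in Ni-W. Of the 6 beta calls, PCDHB5 was higher and PCDHB8, PCDHB9, PCDHB12, PCDHB16 and the pseudogene PCDHB17 were lower.

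PCDHAC2 had 1 and 1 reads (Ni-E) and 199 and 160 (Ni-W), a ratio of 160 with a 95% counting interval of 44 to 1.33e+03 (adjusted P = 1.9e-10). PCDHB16 had 208 and 329 reads (Ni-E) and 96 and 79 (Ni-W), and fell by 1.76 ± 0.30 on the log2 scale (SE, adjusted P = 5e-08) to a level that did not pass the test against UT (124 and 87 reads). PCDHB12 (91 and 117 reads in Ni-E, 39 and 57 in Ni-W; log2 fold change -1.19 ± 0.44 SE, adjusted P = 0.0196) and PCDHB8 (154 and 209, 157 and 79; -0.82 ± 0.30 SE, adjusted P = 0.0219) were lower as well. PCDHB5 rose further, by 0.62 ± 0.19 on the log2 scale (SE, adjusted P = 0.00406). PCDHGB4 was higher in Ni-W than in Ni-E by 1.57 ± 0.19 (adjusted P = 1.7e-15), PCDHGB5 by 1.47 ± 0.19 (6.36e-13) and PCDHGA8 by 1.57 ± 0.46 (0.00253), all as log2 fold change ± SE. Beta genes thus took different courses, PCDHB5 being higher in Ni-W than in Ni-E and PCDHB16 lower. Without 1 library there were 8 calls (Ni-E replicate 1), 7 (Ni-E replicate 2), 4 (Ni-W replicate 1) or 6 (Ni-W replicate 2), and PCDHAC2, PCDHB16, PCDHGB4 and PCDHGB5 kept theirs in each case.

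The HCl3 cells were compared with UT cells in the same way. In HCl3 15 members were upregulated (4 of 15 alpha, 3 of 19 beta and 8 of 23 gamma genes) and 1 beta gene was downregulated. That is 28.1% of the members, of which 42 were tested. Over the 15766 genes tested, 14.8% were called (11.1% upregulated and 3.74% downregulated). The UT libraries are the same as in the comparisons above. PCDHGA11 had 69 and 36 reads (UT), 69 and 43 (Ni-E), 31 and 24 (Ni-W) and 444 and 454 (HCl3). PCDHGB7, its neighbour, had 55 and 41 reads (UT), 54 and 53 (Ni-E), 86 and 84 (Ni-W) and 303 and 318 (HCl3). Both genes were highest in the HCl3 libraries, with log2 fold changes over UT of 2.83 ± 0.26 (SE, adjusted P = 1.77e-26) for PCDHGA11 and 2.4 ± 0.28 (3.61e-16) for PCDHGB7. In Ni-W the libraries also lay apart from UT, below it for PCDHGA11 (-1.19 ± 0.52 SE, adjusted P = 0.0655) and above it, per library total, for PCDHGB7 (0.56 ± 0.42 SE, adjusted P = 0.335), and neither difference passed the test.

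PCDHGB4 had 1097 and 1203 reads and PCDHGB5 1041 and 1106 reads in HCl3, above UT by 1.89 ± 0.16 (SE, adjusted P = 1.67e-31) and 1.67 ± 0.15 (1.51e-25) on the log2 scale. PCDHGA1 (151 and 126 reads; 1.75 ± 0.39 SE, adjusted P = 5.86e-05) and PCDHGA8 (161 and 118 reads; 1.24 ± 0.36 SE, adjusted P = 0.00354) were upregulated too. PCDHGC4, a C-type gene that supports the survival of neurons, had 5 and 1 reads (UT) and 26 and 18 (HCl3) (2.66 ± 1.06 SE, adjusted P = 0.0407). PCDHGC3 had 16.4 and 17.2 RPKM in HCl3 and was above UT by less than the 1.5-fold required (log2 fold change 0.33 ± 0.10 SE, adjusted P = 0.00592). PCDHGC5, whose protein binds receptors for the transmitter GABA, had between 6 and 23 reads in all 8 libraries and was called in no comparison.

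Among alpha genes in HCl3, PCDHAC2 was at least 10.2-fold higher than in UT (adjusted P = 5.09e-05), PCDHAC1 at least 3.99-fold (adjusted P = 0.00579) and PCDHA11 at least 5.6-fold (adjusted P = 0.00125). PCDHA4 rose by 2.27 ± 0.68 on the log2 scale (SE, adjusted P = 0.00441). Among beta genes PCDHB5 had 300 and 291 reads (1.90 ± 0.27 SE, adjusted P = 5e-11), PCDHB14 146 and 147 reads (1.52 ± 0.35 SE, adjusted P = 0.000121) and PCDHB2 134 and 148 reads (1.25 ± 0.34 SE, adjusted P = 0.00174). PCDHB16 was lower than in UT, with 76 and 61 reads (log2 fold change -0.91 ± 0.35 SE, adjusted P = 0.0313). Without 1 library there were 10 calls (UT replicate 1), 13 (UT replicate 2), 6 (HCl3 replicate 1) or 7 (HCl3 replicate 2), and PCDHAC2, PCDHB5, PCDHGB4, PCDHGB5, PCDHGB7 and PCDHGA11 kept theirs in each case.

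**Figure D4:**
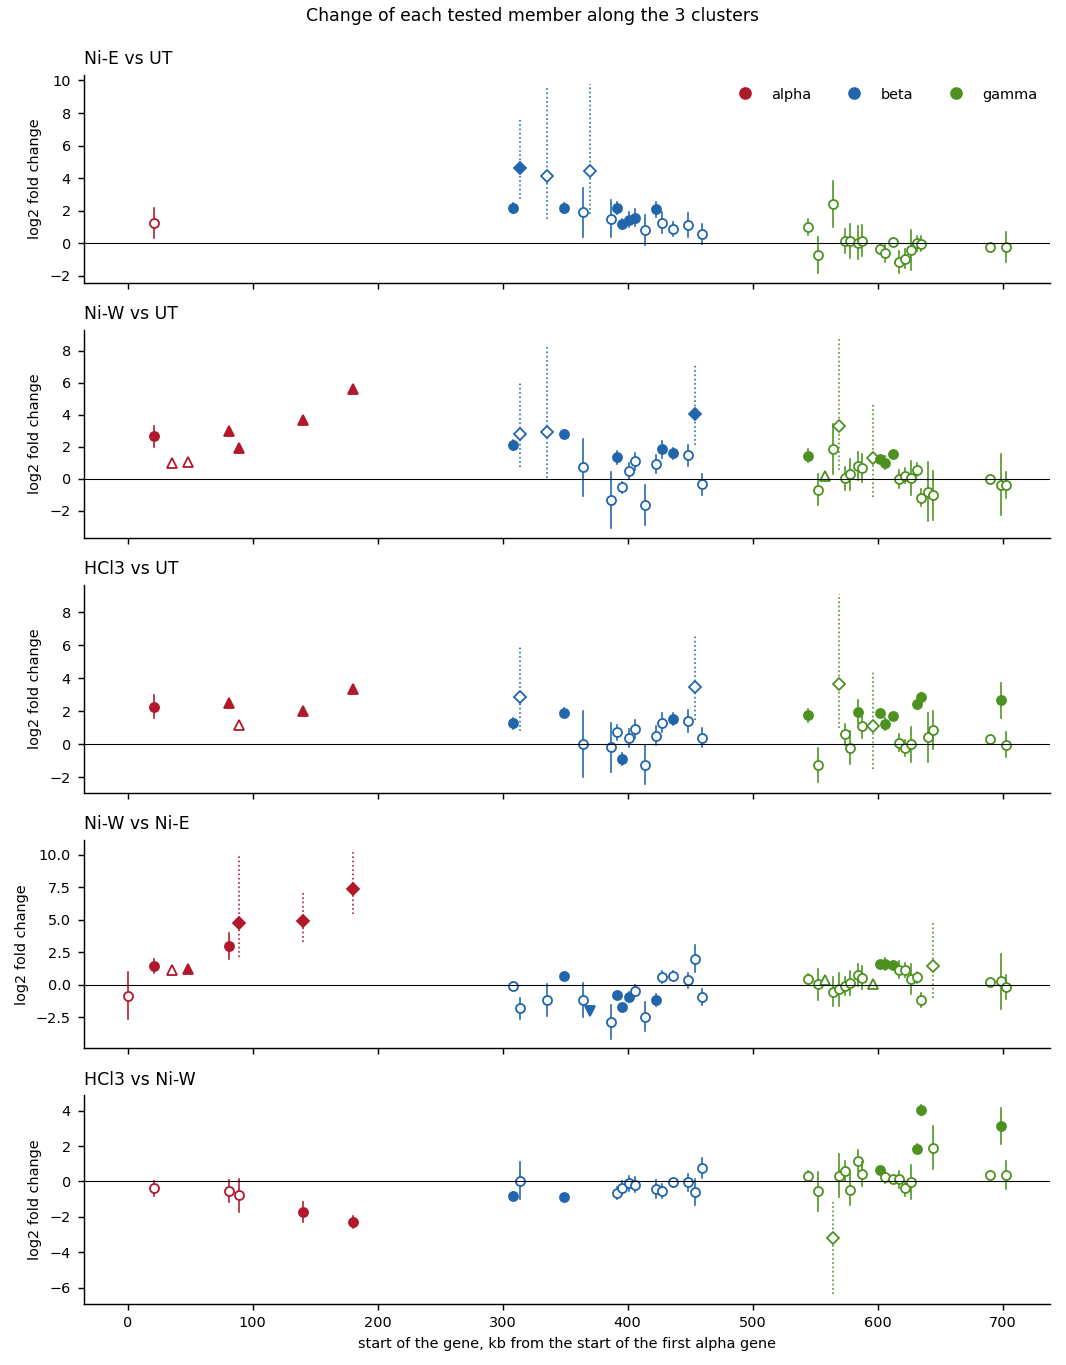
Log2 fold change (vertical axes) of each tested member in the 5 comparisons against its start in kb from the first alpha gene (horizontal axis); filled symbols were called and open ones were not. Circles with lines are fitted values ± SE, triangles are bounds against a group with 0 reads, and diamonds with dotted lines are read ratios with 95% counting intervals. In Ni-E the filled symbols are confined to the beta cluster, whereas in Ni-W and HCl3 they occur in all 3 clusters.

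HCl3 and Ni-W carried the same treatment text and were compared directly. The relation of HCl3 to Ni-W and its time without nickel were not stated, so what a difference between them reflects is not known. In this comparison 8 members were called, which is 14% of the members, of which 38 were tested. Over the 14956 genes tested, 4.77% were called (3.1% higher and 1.66% lower). The 8 members split by cluster, as the 4 lower in HCl3 were alpha and beta genes and the 4 higher in HCl3 were gamma genes. PCDHAC2 was lower in HCl3 by 2.28 ± 0.33 on the log2 scale (SE, adjusted P = 4.42e-10; log2 fold change -2.28), and PCDHB5 (-0.90 ± 0.16 SE, adjusted P = 1.35e-06), PCDHB2 (-0.84 ± 0.23 SE, adjusted P = 0.00295) and PCDHAC1 (-1.72 ± 0.58 SE, adjusted P = 0.0238) were lower too. PCDHGA11 was higher in HCl3 by 4.05 ± 0.28 (SE, adjusted P = 6.68e-46), which was the largest difference among the members called. PCDHGB7 (1.86 ± 0.25 SE, adjusted P = 1.37e-11), PCDHGB4 (0.66 ± 0.12 SE, adjusted P = 1.12e-06) and PCDHGC4 (3.12 ± 1.03 SE, adjusted P = 0.0197) were also higher. PCDHGB5 had like read counts in both groups (1084 and 895 in Ni-W, 1041 and 1106 in HCl3) and was not called. Without each library in turn 5 members were called, and PCDHAC2, PCDHB5, PCDHGB4, PCDHGB7 and PCDHGA11 were the ones that kept their calls.

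The labels gave both Ni-E libraries experiment 2 and the HCl3 libraries experiments 3 and 4, and gave none for UT and Ni-W, so experiment and group cannot be told apart. The fibroblast markers summed to between 461 and 484 RPKM in HCl3 and between 243 and 269 in Ni-W. In Ni-E they summed to between 189 and 354 and in UT to between 359 and 414, most of it COL1A1 in every group. COL1A2 had 456 and 469 reads in HCl3 and between 7 and 70 in the other libraries. LUM went the other way, with 0 and 1 reads in HCl3 and between 3 and 74 in the other libraries. PDGFRA had between 0 and 4 reads and DCN 0 in every library. The part of the fibroblast markers in the higher gamma counts of HCl3 was not tested. The neural markers, which mark the cells best known for these genes, summed to between 28.2 and 30.2 RPKM in Ni-E and between 35.3 and 42.2 in the other groups, nearly all of it TUBB3. MAP2, another neural marker, had 0 and 2 reads (UT), 0 and 0 (Ni-E), 15 and 13 (Ni-W) and 14 and 18 (HCl3), and was called higher in Ni-W than in Ni-E (adjusted P = 0.00479) and in HCl3 than in UT (adjusted P = 0.0436). SYP had 14 and 10 reads (UT), 13 and 22 (Ni-E), 43 and 37 (Ni-W) and 22 and 32 (HCl3) and was not called by DESeq2. Of the neural markers, edgeR called 2 in Ni-W against UT and 2 in Ni-W against Ni-E, where DESeq2 called 0 and 1. The part of these markers in the members' counts was not tested.

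Genes that are known to act on the clusters were followed as a list of 27 regulators, which holds CTCF, the cohesin subunits and loaders, DNA methylation enzymes and silencing factors. None was called in Ni-E against UT by DESeq2 or edgeR (9 at an unadjusted P under 0.05). In Ni-W against UT 2 were higher and 2 lower (15.7% of all genes were called), in HCl3 against UT 1 was lower (14.8% of all genes), in Ni-W against Ni-E 3 were higher and 1 lower (20.5%), and in HCl3 against Ni-W 1 was higher (4.77%). These counts are near or below the shares over all genes. CTCF itself lay between 17.5 and 21.1 RPKM in all libraries. TRIM28, a co-repressor that recruits histone methylation, had 205 and 202 RPKM (UT), 213 and 211 (Ni-E), 118 and 121 (Ni-W) and 190 and 197 (HCl3). It was lower in Ni-W than in UT (log2 fold change -0.81 ± 0.09 SE, adjusted P = 4.59e-16) and than in Ni-E by -0.83 ± 0.08 (7.13e-21), and higher in HCl3 than in Ni-W (0.69 ± 0.07 SE, adjusted P = 3.71e-21). STAG1, a cohesin subunit, rose from UT to Ni-W by 0.60 ± 0.13 (SE, adjusted P = 2.12e-05) and PDS5B, which regulates cohesin release, by 0.66 ± 0.12 (8.05e-07). NIPBL, the cohesin loader, was higher in Ni-W than in Ni-E by 0.94 ± 0.11 (SE, adjusted P = 2.15e-15). SMCHD1, a silencer of the clusters that was singled out after its values were seen, was lower in HCl3 than in UT (log2 fold change -0.72 ± 0.11 SE, adjusted P = 4.79e-09), with 21.1 and 19.1 RPKM against 28.6 and 35.2.

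Of 17 partners and proteases of these proteins, none was called in Ni-E against UT (3 at an unadjusted P under 0.05) or in HCl3 against Ni-W (8 at an unadjusted P under 0.05) by DESeq2 or edgeR. In Ni-W 3 were higher than in UT and 4 higher than in Ni-E, and in HCl3 2 were higher than in UT, which is near the 15.7%, 20.5% and 14.8% of all genes called. ADAM10, the protease that sheds the outer part of these proteins, had 28.6 and 34 RPKM (UT), 25.3 and 25.9 (Ni-E), 53.2 and 55.9 (Ni-W) and 49 and 44.6 (HCl3), and rose from UT to Ni-W by 0.77 ± 0.11 on the log2 scale (SE, adjusted P = 5.19e-10). NCSTN, a subunit of the gamma-secretase that makes the next cut, rose by 0.64 ± 0.10 (SE, adjusted P = 5.82e-09). RAC1, a GTPase that acts on the actin skeleton, was higher in HCl3 than in UT by 0.61 ± 0.11 (SE, adjusted P = 2.02e-07). RET, a receptor kinase that binds clustered protocadherins, had 2 and 0 reads (UT), 2 and 8 (Ni-E), 70 and 47 (Ni-W) and 38 and 33 (HCl3), and was called higher in both washed-out groups (adjusted P = 2.76e-05 in Ni-W and 0.0007 in HCl3).

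Non-clustered protocadherins are relatives that lie outside the clusters and have no shared exons. Of 12 listed, 6 were tested in Ni-E against UT and 3 were higher, 8 were tested in Ni-W and 6 were higher, and 8 were tested in HCl3 and 5 were higher, with none lower against UT. Between Ni-W and Ni-E 4 were higher and 3 lower, and between HCl3 and Ni-W 2 were higher and 1 lower, with 8 tested in each. Over all genes tested, 5.8%, 15.7%, 14.8%, 20.5% and 4.77% were called in these comparisons, in the same order. A larger share of this list was called in each of them by DESeq2. Some listed genes had no reads in UT, such as PCDH17 (80 and 55 reads in Ni-W) and PCDH20 (56 and 38). These could only be called higher than UT, so no conclusion is drawn from the shares. In the same order, edgeR called 3, 6, 7, 7 and 4 of the list and limma on log2(RPKM + 1) 0, 0, 1, 1 and 1. PCDH1, which is expressed in the airway epithelium, had 22 and 12 reads (UT), 27 and 37 (Ni-E), 131 and 82 (Ni-W) and 291 and 330 (HCl3), an order in which HCl3 was above Ni-W (log2 fold change 1.57 ± 0.23 SE, adjusted P = 6.33e-10). PCDH18 had 3 and 3 reads (UT), 80 and 116 (Ni-E), 36 and 16 (Ni-W) and 11 and 24 (HCl3) (Ni-E over UT 4.86 ± 0.75 SE, adjusted P = 1.32e-08). PCDH7 had 51 and 45 reads (UT), 155 and 172 (Ni-E), 40 and 29 (Ni-W) and 98 and 97 (HCl3), and fell from Ni-E to Ni-W by 2.4 ± 0.36 on the log2 scale (SE, adjusted P = 5.38e-10). It was higher in HCl3 than in Ni-W (1.51 ± 0.39 SE, adjusted P = 0.00151). PCDH9 had 0 and 1 reads (UT), 8 and 12 (Ni-E), 141 and 67 (Ni-W) and 70 and 66 (HCl3), and was called higher in Ni-W and in HCl3 (adjusted P = 6.07e-06 and 4.13e-05). PCDH7 and PCDH18 were thus highest in the exposed libraries and PCDH1 and PCDH9 in washed-out libraries.

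Genes within 1 Mb of the outermost members were examined to see what surrounded the clusters. Of 47 neighbours, 3 were higher in Ni-E than in UT, 5 higher and 1 lower in Ni-W, and 5 higher in HCl3, with none lower in Ni-E or HCl3. Between Ni-W and Ni-E 3 were higher and 5 lower, and between HCl3 and Ni-W 2 were higher. Over all genes tested 5.8%, 15.7%, 14.8%, 20.5% and 4.77% were called in these comparisons. Of the neighbours 35, 39, 38, 37 and 36 were tested, in the same order, and the shares of these that were called were near those over all genes. PCDH1 is also among these neighbours. CYSTM1, a small membrane protein gene, had 57.7 and 51.1 RPKM in Ni-E against 32.3 and 30.4 in UT (log2 fold change 0.74 ± 0.14 SE, adjusted P = 6.24e-06), and was lower in Ni-W than in Ni-E (-1.16 ± 0.13 SE, adjusted P = 7.02e-18). RELL2 was higher in Ni-E than in UT (0.66 ± 0.19 SE, adjusted P = 0.00775) and lower in Ni-W than in Ni-E (-0.99 ± 0.17 SE, adjusted P = 6.93e-08). HBEGF, a growth factor that binds the EGF receptor, was lower in Ni-W than in UT (-0.60 ± 0.14 SE, adjusted P = 0.00023). Between the clusters lie TAF7, a subunit of the general transcription machinery, and SLC25A2, a mitochondrial carrier. TAF7 had between 68.6 and 92.9 RPKM and SLC25A2 between 0 and 3 reads, and neither was called in any comparison by DESeq2, edgeR or limma (TAF7 at an unadjusted P under 0.05 in 3 comparisons). TAF7, which lies between the beta and gamma genes, thus differed by less than 1.5-fold in each comparison.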

How the data were processed

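RNA-Seq libraries of BEAS-2B cells (8 in all) were grouped by their labels. Per the study's methods, the authors aligned reads to hg19 with STAR 2.4, discarded reads with several alignments and counted RefSeq genes. The deposited values are raw read counts per gene and RPKM values that the authors derived from them; the use of strand in counting is not given in the sources used here. Nothing else was corrected here.

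Each pair of groups was fitted to the counts of all genes with DESeq2 1.42.0 in R 4.3.3 (2-sided Wald test, only the 4 libraries of the pair, Benjamini-Hochberg adjustment over all genes, independent filtering at 0.1). Genes were called at an adjusted P value under 0.05 and at least 1.5-fold, as in the study's methods. With 2 libraries per group, adjusted P values rest on a spread shared across genes. Groups with 0 reads were set to a floor of 3 reads per library, and ratios of groups with 1 to 3 reads carry 95% exact counting intervals. Sums of RPKM over a cluster were not tested. Reads carried no molecular identifiers, so these intervals cover counting error only.

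Named members are the C-type genes, the 3 with the highest mean RPKM per cluster, and per cluster and comparison the 3 called members with the smallest adjusted P at a mean normalized count of at least 20, 18 in all. From the lists (regulators, partners and proteases, non-clustered protocadherins, neighbours, and epithelial, airway, neural, fibroblast, endothelial and blood markers), up to 4 called genes each are named, markers aside. The members and lists were chosen with earlier results of these data known.

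Alternatives were edgeR 4.0.16, limma 3.58.1 on log2(RPKM + 1), TMM size factors, a mean count of at least 10, all libraries in 1 fit, a replicate block, removal of GC and length trends (91% of 13856 expressed genes and all 57 members had a GC value), and leaving out each library. The scripts were tested on simulated data. Promoters are those of RefSeq (GRCh38.p14), and their coordinates are not on the hg19 scale of the counts. Python 3.11.15 and matplotlib 3.10.9 drew the figures. The chromatin data of the study were not analysed here.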

Additional observations from a re-analysis of the deposited data

Results flagged for a closer look

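The labels describe HCl3 and Ni-W by the same treatment text, yet 8 members differed between them in the direct DESeq2 comparison (HCl3 over Ni-W, log2 fold change ± SE). Lower in HCl3 were PCDHAC2 (-2.28 ± 0.33, adjusted P = 4.42e-10), PCDHAC1 (-1.72 ± 0.58, adjusted P = 0.0238), PCDHB5 (-0.90 ± 0.16, adjusted P = 1.35e-06) and PCDHB2 (-0.84 ± 0.23, adjusted P = 0.00295). Higher in HCl3 were PCDHGA11 (4.05 ± 0.28, adjusted P = 6.68e-46), PCDHGC4 (3.12 ± 1.03, adjusted P = 0.0197), PCDHGB7 (1.86 ± 0.25, adjusted P = 1.37e-11) and PCDHGB4 (0.66 ± 0.12, adjusted P = 1.12e-06). Each of the 8 had both libraries of a group on the same side of both libraries of the other. Members that were not called, such as PCDHA4, PCDHB16 and PCDHGB6, were separated likewise, so this adds no support to the calls. The HCl3 libraries carried experiment labels and the Ni-W libraries none, so experiment and group cannot be told apart.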

How the results depend on the processing

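Of 48 calls of named members, 17 were kept in every alternative run for their own comparison that gave an adjusted P value, 22 were kept in all of these when limma on log2(RPKM + 1) was set aside, and 0 changed direction. edgeR and TMM size factors kept all 48, a single fit of all 8 libraries 45, removal of GC and length trends 46, and limma 17. In 4 instances an alternative gave no adjusted P value, and in 1 the member was under the mean count of 10, and these are not counted as lost.

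The number of members called was 8 in Ni-E against UT, 15 in Ni-W against UT, 16 in HCl3 against UT, 15 in Ni-W against Ni-E and 8 in HCl3 against Ni-W. With limma on log2(RPKM + 1) it was 0, 5, 5, 4 and 3, in the same order. This scale compresses changes of genes at low RPKM, and in Ni-E against UT limma called 0 genes in all. Leaving out each library in turn gave between 3 and 5, between 6 and 11, between 6 and 13, between 4 and 8, and 5 (in each of 4 cases), as a group of 1 library borrows its spread from the other.

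The labels pair libraries only by a repeat suffix, and same-suffix deviations correlated at r = -0.106, 0.2, -0.16, -0.107 and -0.0458 in the 5 comparisons, so they were not treated as pairs. With the suffix as a replicate block there were 5 calls in Ni-E against UT, 11 in Ni-W against UT, 9 in HCl3 against UT, 9 in Ni-W against Ni-E and 5 in HCl3 against Ni-W. With GC and length trends removed as well there were 5, 10, 9, 7 and 5, in the same order. A crossed replicate block, added after the data were seen where r was under -0.1, gave 6 calls in Ni-E against UT, 10 in HCl3 against UT and 9 in Ni-W against Ni-E.

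In CPM (reads scaled to the library total) in place of RPKM, the log2 ratio of the summed alpha level to UT was 5.26 in place of 4.18 in Ni-W and 3.85 in place of 2.76 in HCl3. For beta it was 1.5 in place of 1.63 in Ni-W and 0.97 in place of 1.06 in HCl3, and for gamma 0.93 in place of 0.89 in HCl3. The gamma sum in Ni-E was -0.15 against UT on the log2 scale and 0.03 without Ni-E replicate 1, with the values without each library between -0.36 and 0.03. Depth limits the alpha genes most, of which 10 or more reads in each library were found for 0 in UT, 1 in Ni-E and 4 in each washed-out group.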
